A study of Homo sapiens with 54 samples.

Results

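PEO4 is an established human cell line of high-grade serous ovarian carcinoma that is resistant to platinum drugs. The comparison described here sets PEO4 cells held for 8 h in 80 µM carboplatin against untreated PEO4 cells, with 3 libraries in each group, which are 6 of the 54 libraries of the study. The libraries were chosen by their labels alone. The study used 3 pairs of lines, each pair taken from 1 patient, one sensitive and one resistant, untreated and at 8 h and 24 h of carboplatin. PEO4 is paired with the sensitive line PEO1. The treatment label gives the dose as µM and the series text gives it as mM, and the label is followed here. The untreated libraries carry a time of 0 in the labels, while the text of the series speaks of vehicle-treated controls at 24 h. The series text says that the experiment was done on 3 days. The treated cultures were at passages 9, 10 and 11 and the untreated ones at passages 6, 7 and 8, so treatment and passage cannot be told apart. Total RNA was made into libraries with a stranded kit. The values are TPM, in which the reads of a gene are divided by its length and every library is scaled to a common total, so a value is a share of the library's RNA and not an amount per cell. TPM keeps no read depth, and the depth behind each value is unknown.

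Carboplatin enters the cell as a neutral complex, loses its organic ligand and binds guanine bases in DNA, where it links neighbouring bases on a strand or across strands. The nucleotide excision repair, Fanconi anaemia and homologous recombination pathways remove or bypass these lesions. RNA polymerase II stalls at such lesions, and a stalled polymerase can be removed and degraded. Short-lived mRNAs disappear soon after their synthesis slows, whereas long-lived mRNAs, such as those for ribosomal proteins, persist. Histone mRNAs of the replication-dependent kind end in a stem-loop instead of a poly(A) tail and are made in S phase.

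The 3 treated libraries did not look alike. Genes listed above 0 TPM numbered 14869, 12877 and 9963 at 8 h, against 15467, 13799 and 14240 untreated. The third treated library, at passage 11, is therefore the one below the 12000 genes set as a minimum, and results are given with all 6 libraries and with the 5 that are left. Its log2 values correlated at 0.52 and 0.54 with the other two treated libraries, which correlated at 0.93 with each other, and at 0.81 with the first PEO4 library taken at 24 h (Pearson, over 14435 genes, which are not independent). Its most abundant RNA was PCNA-AS1, an antisense RNA. Cytosolic ribosomal protein mRNAs took 20.6%, 21.5% and 6.99% of TPM at 8 h and 9.39%, 7.68% and 9.69% untreated. The noncoding RNAs RMRP and RPPH1, the RNA parts of the ribonucleases MRP and P, took 27.6%, 38.2% and 7.23% at 8 h and 10.9%, 13.6% and 7.23% untreated. Olfactory receptors, normally confined to the nose, were above 0 in 7, 7 and 6 cases of 378 at 8 h and in 25, 19 and 24 untreated. Of 14 markers of Müllerian and serous epithelium, the tissue of origin, 12 to 13 were above 0 in the treated libraries and 13 to 14 in the untreated ones. Summed fibroblast markers reached at most 0.31 TPM at 8 h and 11.3 TPM untreated, with DCN, LUM, PDGFRA, PDGFRB and FAP listed at 0 in all 6 libraries. The 7 leukocyte markers summed to at most 0.84 TPM at 8 h and 3.38 TPM untreated, with PTPRC at 0 in all 6, and the 5 endothelial markers to 0 TPM at 8 h and at most 1.81 TPM untreated.

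**Figure D1:**
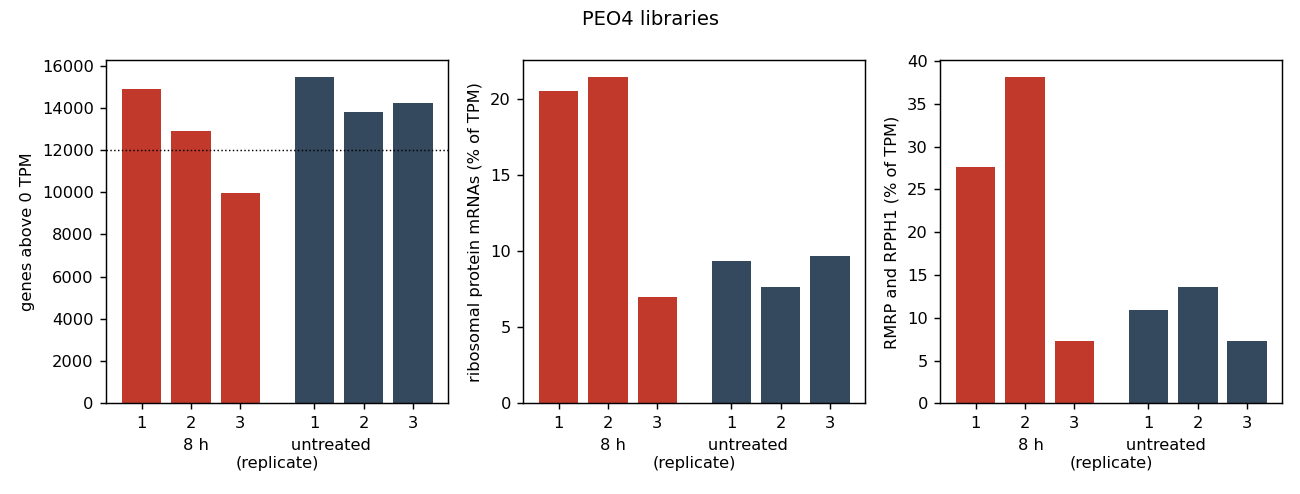
Bars give, for each PEO4 library (8 h in red, untreated in dark blue), the genes listed above 0 TPM, the share of TPM in ribosomal protein mRNAs and the share in RMRP and RPPH1. The third library at 8 h lies below the dotted line at 12000 genes and has shares of 6.99% and 7.23%, near those of the untreated libraries.

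At 8 h long mRNAs, among them most of those for chromatin regulators, took a smaller share of PEO4 RNA. GC-rich mRNAs did so in the first and second treated libraries, whose differences from the untreated mean correlated with GC at -0.50 and -0.44. In the third this correlation was -0.08 (Spearman). Short histone mRNAs took a larger share, and in the first and second treated libraries so did short mRNAs for ribosomes and mitochondria. In the third, ribosomal protein and respiratory chain mRNAs summed to 69860 and 6593 TPM, below every untreated library. With all 6 libraries, 496 genes (2.72% of 18262 tested) were higher and 1355 (7.42%) were lower at 8 h, by limma with Benjamini-Hochberg adjusted p under 0.05. With the 5 libraries above the minimum, 3888 (21.6% of 18013) were higher and 5756 (32%) were lower. Counts in the gene lists below stand beside these shares. Of the 496 and 1355 calls, 455 and 1351 (2.53% and 7.5% of 18013) were made again with 5 libraries in the same direction and none in the opposite one. With and without rescaling, 83 genes (0.461%) were called higher and 1351 (7.5%) lower with 5 and with 6 libraries. Below, a gene is said to have risen or fallen where it was called with the 5 libraries, and log2 changes with their standard errors (SE) are from that fit, on the log2(rescaled TPM + 1) scale, with 2 treated and 3 untreated libraries. Rescaling set the typical gene to the same level in each library and decided the balance of directions. Without it the median log2 change of all genes was -1.12 in place of -0.24, and with 5 libraries 1141 genes (6.33%) were higher and 8560 (47.5%) lower. Of the 5756 genes that fell, 5755 were also called lower without rescaling. Of the 3888 that rose, 1141 were also called higher and 21 were called lower. In TPM as deposited, all 3 treated libraries lay above all 3 untreated ones for 208 genes (1.14%) and below them for 5924 (32.4%). In rescaled TPM these were 1445 (7.91%) and 2518 (13.8%). These counts take the spread from all groups of the study: fitted to the 6 libraries alone, limma called 0 genes, with 3166 at an unadjusted p under 0.05, and fitted to the 5 alone it called 4834. The p-values measure the spread between libraries. Of how separate the cultures were, only the passage in the labels and the 3 days in the series text are known.

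Chromatin regulators had the largest share called lower among the 40 gene lists. Of 49 tested members 44 fell with 5 libraries and the rest were not called, and 19 were called lower with all 6. Their median log2 change was -2.49, against -0.24 for all genes. In TPM as deposited the 3 treated libraries lay below the 3 untreated ones for 48 of the 49, against 32.4% of all genes. In rescaled TPM this held for 38 of them, against 13.8% of all genes. KMT2D, a histone H3 lysine methyltransferase of enhancers, stood at 0.61, 0.63 and 1.85 TPM at 8 h, against 63.0, 86.9 and 35.8 TPM untreated (-4.16 ± 0.39, adjusted p = 1.39e-09). SETD1B, a methyltransferase of promoters, stood at 1.54, 0.69 and 2.21 TPM at 8 h, against 100.7, 133 and 36.0 TPM untreated (-4.14 ± 0.46, adjusted p = 2.11e-08). The groups did not overlap for either gene, and both were also called lower with all 6 libraries. The list's median transcript length was 8.53 kb, against 3.30 kb for all genes, and its median GC content was 49.3%, against 49.0%. When log2 values were centred in each library within bins of GC, length and level, an alternative chosen after seeing the data, 42 of the 49 were called lower and the rest were not called, with a median of -1.37. Of all genes 20.4% were then called higher and 22.5% lower. The centring used 3 bins of length. Before it, 39.1% of protein-coding genes of 4 to 6 kb and 44.2% of those over 8 kb were called lower. A trend with length inside the longest bin may therefore remain for this list.

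**Figure D2:**
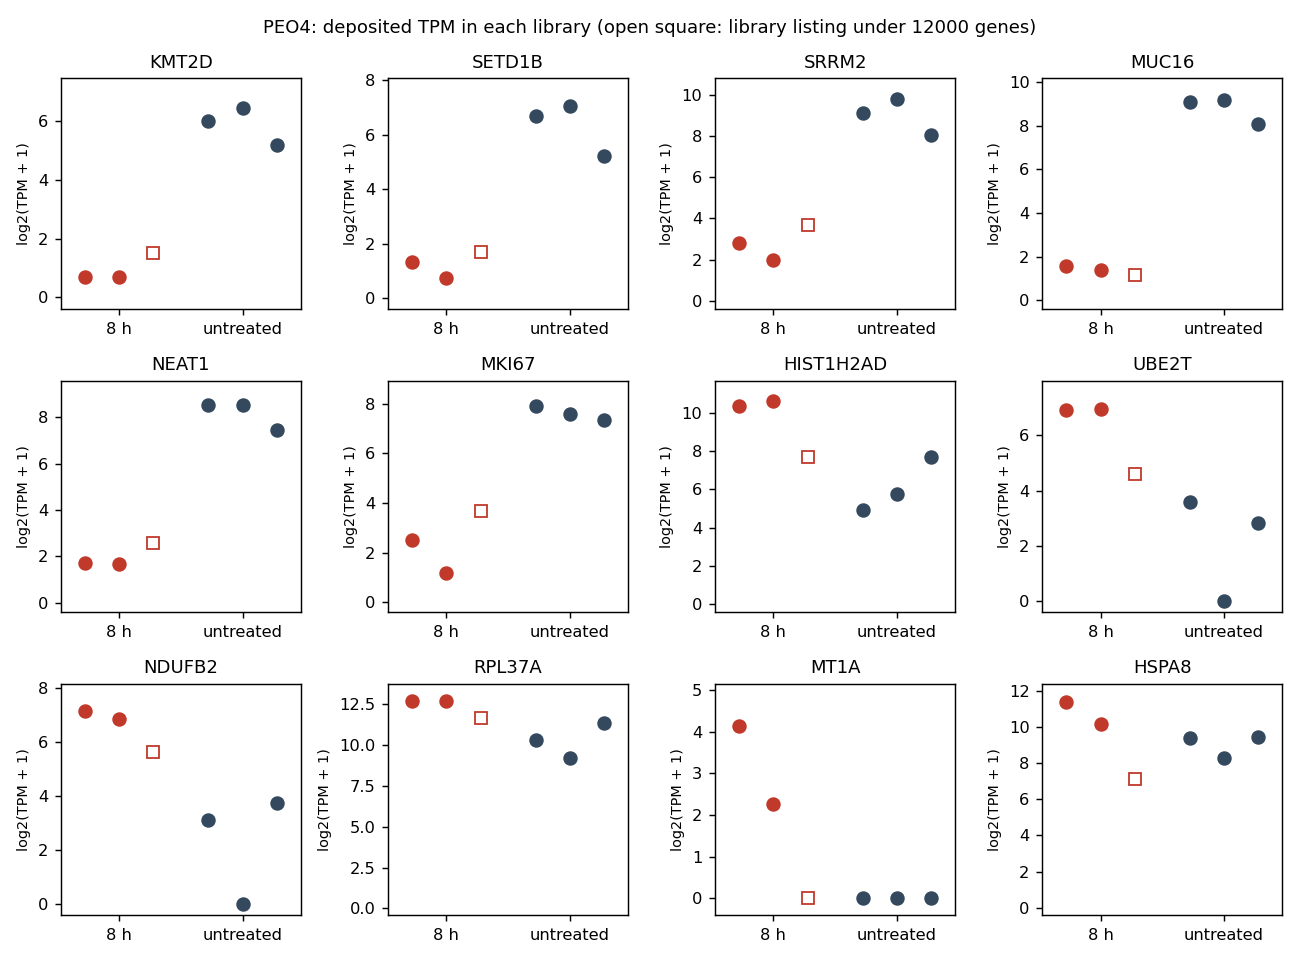
Deposited values as log2(TPM + 1) in each PEO4 library, 8 h in red on the left and untreated in dark blue on the right, with the treated library under 12000 genes as an open square. KMT2D, SETD1B, SRRM2, MUC16, NEAT1 and MKI67 lie lower in all treated libraries, while HIST1H2AD, UBE2T, NDUFB2, RPL37A, MT1A and HSPA8 lie higher in the first and second treated libraries than in any untreated one.

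Splicing factors divided. Of 40 SR and hnRNP genes tested, 17 fell and 14 rose, with a median log2 change of -0.30, and 4 were called lower and 1 higher with all 6 libraries. SRRM2, a large scaffold protein of nuclear speckles, stood at 6.09, 2.89 and 11.6 TPM at 8 h, against 553, 885 and 263 TPM untreated (-5.12 ± 0.44, adjusted p = 4.49e-10). Its relative SRRM1 stood at 8.93, 1.75 and 7.04 TPM at 8 h, against 158, 234 and 104.8 TPM untreated (-3.52 ± 0.35, adjusted p = 2.80e-09), and HNRNPUL1, an hnRNP-like protein that acts in the DNA damage response, at 47.3, 13.6 and 85.5 TPM at 8 h, against 455, 1152 and 322 TPM untreated (-2.77 ± 0.39, adjusted p = 8.42e-07). In all 3 the groups stood apart. HNRNPC, a core hnRNP protein, stood at 417, 262 and 71.7 TPM at 8 h, against 139.8, 104.3 and 128 TPM untreated, with the treated library of passage 11 below the untreated ones, and rose by 3.07 (adjusted p = 1.01e-10). After centring by GC, length and level, 24 of the 40 were called lower and 8 higher. Among nuclear long noncoding RNAs 7 of 22 fell and 3 rose, a share of falls near the 32% of all genes. NEAT1, the scaffold of paraspeckles, was at 2.29, 2.15 and 4.95 TPM at 8 h, against 374, 373 and 172 TPM untreated. MALAT1, a speckle RNA, was at 105.7, 55.3 and 41.6 TPM at 8 h, against 3295, 2743 and 2366 TPM untreated. KCNQ1OT1, an imprinted antisense RNA, was at 0.21, 0.11 and 0 TPM at 8 h, against 12.99, 11.9 and 7.96 TPM untreated (-2.77 ± 0.32, adjusted p = 3.02e-08). The groups did not overlap for these 3 members, which were called lower with all 6 libraries as well.

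Genes that respond fast to growth signals were mostly lower. Of 35 immediate early genes, 21 fell and 4 rose (median log2 change -1.41), and with all 6 libraries 3 were lower and 1 higher. After centring by GC, length and level 18 were lower and 4 higher. EGR1, a zinc finger factor induced by serum, stood at 0.98, 1.47 and 2.97 TPM at 8 h, against 283, 469 and 75.7 TPM untreated (-5.37 ± 0.71, adjusted p = 3.06e-07). CYR61, a matricellular protein and a target of both serum response factor and YAP, stood at 3.8, 3.06 and 0 TPM at 8 h, against 51.5, 56.6 and 48.2 TPM untreated (-2.14 ± 0.30, adjusted p = 8.71e-07). Neither overlapped between groups. ATF3, a stress-induced factor of the same list, stood at 8.17, 1.84 and 4.99 TPM at 8 h, against 3.27, 0 and 2.64 TPM untreated and rose by 2.30 (adjusted p = 6.23e-05), but was not called without rescaling (adjusted p = 0.115). Of 19 Hippo and YAP targets, 13 fell and 1 rose (median -1.43), and 12 were lower and the rest not called after the centring, but with all 6 libraries 1 was called lower. CTGF, a secreted matricellular protein, stood at 4.77, 2.49 and 0 TPM at 8 h, against 102.1, 111 and 21.4 TPM untreated (-2.40 ± 0.48, adjusted p = 0.000113), and the treated library of passage 11 listed it at 0. AMOTL1 and AMOTL2, angiomotins that bind YAP, stood at 8.4, 2.13 and 22.1 and at 22.6, 3.18 and 73.4 TPM at 8 h, against 83.2, 91.3 and 69.7 and 183, 176 and 114 TPM untreated, again without overlap (-2.49 and -2.46, adjusted p = 2.77e-07 and 5.54e-07).

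Of 29 Notch, ID and TGF-beta targets, 15 fell and 5 rose, and 6 were called lower with all 6 libraries. After centring by GC, length and level 7 were lower and 4 higher, against 22.5% and 20.4% of all genes. NOTCH1, a receptor, stood at 0.77, 0.12 and 0.97 TPM at 8 h, against 24.5, 34.4 and 11.9 TPM untreated (-3.32 ± 0.43, adjusted p = 2.65e-07), and NOTCH3 at 1.93, 0.7 and 1.12 TPM at 8 h, against 50.9, 60.5 and 19.8 TPM untreated (-3.04 ± 0.44, adjusted p = 1.18e-06). Both lie in transcripts of high GC content, 62.9% and 63.1%, and neither was called after centring by GC, length and level (-0.26 and 0.01, adjusted p = 0.487 and 0.983). SKI, a repressor of SMAD proteins, stood at 1.59, 0.6 and 3.2 TPM at 8 h, against 68.7, 79.4 and 30.7 TPM untreated (-3.70 ± 0.38, adjusted p = 6.40e-09) and was still called lower after the centring (-1.08, adjusted p = 0.00158). Among 32 NF-kB and cytokine genes 13 fell and 3 rose, against 32% and 21.6% of all genes. BCL3, an atypical IkB protein, stood at 2.03, 0 and 0 TPM at 8 h, against 37.2, 28.7 and 8.18 TPM untreated (-3.08 ± 0.63, adjusted p = 0.000130), and TNIP1, an inhibitor of NF-kB signalling, at 16.7, 2.37 and 17.1 TPM at 8 h, against 107, 138 and 70.1 TPM untreated (-2.27 ± 0.35, adjusted p = 3.03e-06). Of 17 circadian clock genes 10 fell and 2 rose with 5 libraries. With all 6, limma called 0 of them, and 2 were lower and 1 higher at an unadjusted p under 0.05. After the centring 4 were lower and the rest were not called, with a median of -0.14. That share of falls was near the 22.5% of all genes called lower after the centring. CLOCK, a subunit of the core clock activator, stood at 3.45, 1.29 and 12.1 TPM at 8 h, against 30.3, 13.7 and 113 TPM untreated, with the third treated library close to the lowest untreated one (-2.25 ± 0.46, adjusted p = 0.000149). Of 26 MYC and ribosome biogenesis genes, 12 fell and 7 rose. UBTF, which drives transcription by RNA polymerase I, stood at 18.7, 4.04 and 55.9 TPM at 8 h, against 215, 220.2 and 177 TPM untreated (-2.83 ± 0.32, adjusted p = 2.44e-08), and TCOF1, its partner treacle, at 19.0, 4.47 and 86.4 TPM at 8 h, against 275, 405 and 179 TPM untreated (-3.16 ± 0.36, adjusted p = 2.88e-08). BOP1, a factor for the large ribosomal subunit, stood at 29.6, 7.86 and 47.8 TPM at 8 h, against 315, 318 and 245 TPM untreated (-2.56 ± 0.31, adjusted p = 8.47e-08). All treated values lay under all untreated ones for these 3.

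The 12 genes with the largest falls among those called with 5 and with 6 libraries were abundant when untreated and near 0 in the first and second treated libraries. TNFRSF6B, a decoy receptor for FAS ligand, stood at 1.13, 0 and 43.7 TPM at 8 h, against 443, 363 and 390.0 TPM untreated (-7.54 ± 0.73, adjusted p = 2.04e-09). MAPK15, an atypical MAP kinase, stood at 0.33, 0 and 10.2 TPM at 8 h, against 209.9, 257 and 231 TPM untreated (-7.21 ± 0.46, adjusted p = 2.35e-12). SMIM6, a small membrane protein, was listed at 0, 0 and 12.9 TPM at 8 h, against 219, 229 and 255 TPM untreated (adjusted p = 6.45e-11). MXRA8, an adhesion protein and a receptor for arthritogenic alphaviruses, stood at 4.38, 0 and 107 TPM at 8 h, against 448, 289 and 453 TPM untreated (-6.76 ± 0.63, adjusted p = 1.15e-09). AATK, a membrane kinase, stood at 2.62, 0.67 and 93.6 TPM at 8 h, against 502, 405 and 432 TPM untreated (-6.34 ± 0.40, adjusted p = 2.35e-12), and FAM101A, also named RFLNA, a filamin regulator, at 0, 0.54 and 17.7 TPM at 8 h, against 195, 137 and 222 TPM untreated (-6.34 ± 0.42, adjusted p = 4.22e-12). In every one of these the treated library of passage 11 was the highest of the 3 treated ones and still below all untreated ones. The others are uncertain in their assignment of reads. NPIPB3, NPIPB5 and NPIPA1 belong to a family of near-identical copies, with 8 h values of at most 1.89 TPM and untreated values of 94.4 to 760.4 TPM. TCEB3C, an elongin A relative with near copies, stood at 1.01, 0 and 0 TPM at 8 h, against 532, 324 and 198 TPM untreated. LOC101928158, an uncharacterised locus, stood at 0.83, 2.91 and 77.5 TPM at 8 h, against 605, 450.1 and 437 TPM untreated. TEN1-CDK3, a readthrough transcript, stood at 2.02, 0 and 59.2 TPM at 8 h, against 293, 213 and 214 TPM untreated (-6.51 ± 0.55, adjusted p = 2.58e-10), while the overlapping gene TEN1, a telomere capping protein of the CST complex, stood at 49.4, 49.9 and 510.0 TPM at 8 h, against 0, 0 and 3.36 TPM untreated (6.34 ± 0.61, adjusted p = 2.34e-09). The readthrough and TEN1 thus moved in opposite directions in all 3 treated libraries, and reads of one cannot be told apart from those of the other where they overlap.

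Ribosomal protein mRNAs rose as a block. Of 78 tested, 75 rose with 5 libraries and the rest were not called, and 12 were called higher with all 6. Their median log2 change was 3.11, or 1.45 without rescaling, where 61 were higher and 2 lower. Summed, they stood at 205630, 214946 and 69860 TPM at 8 h and at 93942, 76766 and 96946 TPM untreated, so that the third treated library lay below the untreated ones. RPL37A, of the large subunit, stood at 6479.8, 6723 and 3169 TPM at 8 h, against 1277, 588 and 2624 TPM untreated (4.05 ± 0.49, adjusted p = 7.98e-08). RPS27A, a ubiquitin fusion of the small subunit, stood at 2499.8, 3353 and 493 TPM at 8 h, against 465, 151 and 476 TPM untreated (4.82 ± 0.53, adjusted p = 1.81e-08). RPS21, also of the small subunit, stood at 3134, 4176 and 1054 TPM at 8 h, against 792, 158 and 1006 TPM untreated (4.5 ± 0.68, adjusted p = 2.29e-06), and RPL10A at 1679, 1609 and 489 TPM at 8 h, against 322, 119.7 and 538 TPM untreated (4.23 ± 0.45, adjusted p = 1.18e-08). The first and second treated libraries exceeded every untreated one for all 4 genes, and the third exceeded every untreated one for RPL37A, RPS27A and RPS21. Many of these genes have processed pseudogenes, so their reads may be split. After centring by GC, length and level 59 were higher and 1 lower.

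Nuclear genes of the respiratory chain and ATP synthase behaved alike. Of 75 tested, 69 rose and 1 fell with 5 libraries, with a median of 3.35, and 9 were higher with all 6. Without rescaling 52 were higher and 5 lower, and after the centring 60 and 2. NDUFB2, an accessory subunit of complex I, stood at 142, 117 and 49.4 TPM at 8 h, against 7.73, 0 and 12.6 TPM untreated (6.28 ± 0.64, adjusted p = 4.97e-09), so the groups stood apart. NDUFB5, another, stood at 93.4, 93.4 and 23.2 TPM at 8 h, against 7.48, 0 and 12.1 TPM untreated (5.85 ± 0.68, adjusted p = 3.60e-08). NDUFA9 stood at 123, 91.1 and 6.05 TPM at 8 h, against 5.93, 0 and 3.19 TPM untreated (6.65 ± 0.56, adjusted p = 2.33e-10), with the third treated library next to the highest untreated one. NDUFA4, now counted with complex IV, stood at 76.3, 111 and 9.27 TPM at 8 h, against 4.56, 2.35 and 14.7 TPM untreated (5.40 ± 0.60, adjusted p = 2.21e-08), with the third treated library inside the untreated range. Of 31 proteasome subunits, 26 rose and the rest were not called, and 1 was called with all 6 libraries. PSMA6, an alpha ring subunit, stood at 394, 495 and 10.6 TPM at 8 h, against 88.0, 5.81 and 55.1 TPM untreated (5.41 ± 0.60, adjusted p = 2.15e-08), and PSMD6, of the regulatory particle, at 132, 79.5 and 33.2 TPM at 8 h, against 29.2, 0 and 55.8 TPM untreated (4.69 ± 0.78, adjusted p = 8.68e-06). Without rescaling 16 proteasome genes were higher and 5 lower. Among 38 translation factors 22 rose and 6 fell. Without rescaling 11 were higher and 15 lower, against 6.33% and 47.5% of all genes. EEF1B2, an exchange factor for the elongation factor eEF1A, stood at 1522, 1118 and 216 TPM at 8 h, against 188, 94.6 and 497 TPM untreated (4.31 ± 0.47, adjusted p = 1.62e-08), and EIF4E, the cap-binding protein, at 32.2, 19.3 and 13.5 TPM at 8 h, against 13.7, 4.17 and 14.4 TPM untreated (2.89 ± 0.36, adjusted p = 1.41e-07).

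Replication-dependent histone genes rose, many of them in the third treated library too. Of 62 tested, 55 rose with 5 libraries and the rest were not called, and 13 were higher with all 6. For 18 of the 62 all treated libraries lay above all untreated ones in TPM as deposited, against 1.14% of all genes. Their summed share was 7.72%, 8.02% and 7.49% of TPM at 8 h and 5.86%, 7.05% and 4.48% untreated. HIST1H2AD, an H2A gene, stood at 1309, 1584 and 205 TPM at 8 h, against 29.03, 53.2 and 202 TPM untreated (6.03 ± 0.79, adjusted p = 2.47e-07). HIST2H2AB stood at 901, 822 and 369 TPM at 8 h, against 282, 13.4 and 201 TPM untreated (4.85 ± 0.71, adjusted p = 1.57e-06), HIST3H2A at 296, 338 and 197 TPM at 8 h, against 30.8, 23.5 and 100.5 TPM untreated (4.53 ± 0.71, adjusted p = 4.23e-06) and HIST1H3J, an H3 gene, at 476, 491 and 156 TPM at 8 h, against 105.1, 49.3 and 65.9 TPM untreated (4.42 ± 0.62, adjusted p = 7.08e-07). In each the lowest treated library was above the highest untreated one. Histone genes are near copies of one another, so the share of a single member is uncertain. Their transcripts were short and GC-rich, with medians of 0.506 kb and 57.3%, and after centring by GC, length and level 42 were higher and 2 lower. Without rescaling 32 were higher and 4 lower.

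Small structural RNAs were tested for 13 members, of which 8 rose and the rest were not called, and 2 were higher with all 6 libraries. RMRP stood at 145537, 200303 and 54018 TPM at 8 h, against 53027, 59291 and 44074 TPM untreated (3.38 ± 0.81, adjusted p = 0.000818), and SCARNA7, a guide RNA of Cajal bodies, at 390.4, 305 and 90.5 TPM at 8 h, against 40.7, 0 and 66.9 TPM untreated (6.20 ± 0.93, adjusted p = 2.29e-06). By annotated class, 41 of 148 snoRNAs and scaRNAs (27.7%) rose and the rest were not called. Of 15429 protein-coding genes 23.8% rose and 32.5% fell, and of 1007 long noncoding RNAs 6.06% rose and 29.2% fell. SNORA80B, an H/ACA guide RNA, stood at 948, 1006 and 428 TPM at 8 h, against 316, 0 and 0 TPM untreated (8.63 ± 1.46, adjusted p = 1.21e-05). SNHG5, a host gene from whose introns snoRNAs are cut, stood at 398, 450.4 and 23.9 TPM at 8 h, against 52.5, 34.3 and 36.6 TPM untreated (5.0 ± 0.53, adjusted p = 1.05e-08). These RNAs are shorter than the fragments such libraries favour, and their TPM rests on few bases.

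Other large rises were scattered over processes. UBE2T, the ubiquitin-conjugating enzyme of the Fanconi anaemia pathway, stood at 121, 123 and 23.1 TPM at 8 h, against 11.2, 0 and 6.02 TPM untreated (6.36 ± 0.59, adjusted p = 1.12e-09), and all treated values exceeded all untreated ones. RBX1, the RING subunit of cullin ligases, stood at 52.8, 63.9 and 11.6 TPM at 8 h, against 3.73, 0 and 0 TPM untreated (6.55 ± 0.59, adjusted p = 8.09e-10). TMEM14B, a small membrane protein, stood at 97.5, 90.1 and 59.0 TPM at 8 h, against 12.98, 0 and 0 TPM untreated (6.74 ± 0.72, adjusted p = 1.08e-08). Neither overlapped between the groups. MRPL13, a mitochondrial ribosomal protein, stood at 277, 218 and 9.15 TPM at 8 h, against 11.9, 0 and 9.59 TPM untreated (7.15 ± 0.68, adjusted p = 1.86e-09), and MRPL39 at 75.6, 59.2 and 0 TPM at 8 h, against 3.05, 0 and 0 TPM untreated (6.82 ± 0.58, adjusted p = 2.75e-10), and in both the third treated library lay inside the untreated range. NUP37, a nucleoporin, was listed at 57.3, 47.6 and 0 TPM at 8 h and at 0 in all untreated libraries (adjusted p = 2.14e-10). ALG5, of protein N-glycosylation, was listed at 42.4, 29.1 and 0 TPM at 8 h and at 0 in all untreated libraries (adjusted p = 2.26e-11). SCARNA3 was listed at 16.0, 78.2 and 0 TPM at 8 h and likewise at 0 untreated (adjusted p = 0.00111). For these genes, listed at 0 in the whole untreated group, no fold change is given here, since a 0 in this table may be a failed estimate. UBE2T, RBX1, TMEM14B, MRPL13 and MRPL39 were at 0 in part of the untreated libraries. Their log2 changes, like those of other genes with such zeros, depend on these zeros and on the 1 added before the log.

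Most tested metallothioneins, small cysteine-rich proteins that bind zinc, copper and also platinum, were called higher at 8 h with 5 libraries. The family as a whole did not rise in TPM as deposited. Its 11 listed members summed to 1042, 477 and 249 TPM at 8 h, against 521, 697 and 751 TPM untreated. The sums at passages 10 and 11 thus lay below those of all untreated libraries. Of 8 tested members 6 rose with 5 libraries and the rest were not called, 6 were called higher without rescaling too, and 3 were called higher with all 6 libraries. Their genes are driven by the metal response element, whose core reads TGCACNC or TGCGCNC and is bound by the zinc sensor MTF1. The promoters of MT1X, which rose, and MT2A, the most abundant member, which was not called, are shown to compare this element, with each match on either strand in capitals (250 bases before the start of the gene on the plus strand, chr16:56682220-56682469 and chr16:56608334-56608583 of GRCh38.p14, from RefSeq).
MT1X: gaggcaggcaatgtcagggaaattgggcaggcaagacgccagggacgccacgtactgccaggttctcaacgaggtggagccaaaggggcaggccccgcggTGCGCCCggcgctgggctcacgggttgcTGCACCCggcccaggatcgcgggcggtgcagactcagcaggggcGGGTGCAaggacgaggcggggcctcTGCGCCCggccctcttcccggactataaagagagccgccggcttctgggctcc
MT2A: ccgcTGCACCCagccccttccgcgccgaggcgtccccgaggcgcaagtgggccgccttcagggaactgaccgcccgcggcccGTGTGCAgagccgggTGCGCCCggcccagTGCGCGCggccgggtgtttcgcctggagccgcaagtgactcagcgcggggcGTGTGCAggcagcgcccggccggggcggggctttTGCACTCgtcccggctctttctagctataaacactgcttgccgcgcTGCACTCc
The window of MT1X holds 4 matches and that of MT2A holds 7, and no other motif was searched. Of 27305 promoter windows of the same length, 24.7% hold at least 1 match and 1.56% at least 3. A match describes the letters and does not show a site in use.

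MT1X was listed at 48.4, 29.7 and 0 TPM at 8 h and at 0 in all untreated libraries (adjusted p = 1.71e-05). MT1F was listed at 14.3, 9.91 and 0 TPM at 8 h and MT1A at 16.6, 3.81 and 0 TPM at 8 h, both at 0 in all untreated libraries (adjusted p = 3.93e-05 and 1.41e-07). MT1M was listed at 7.18, 3.31 and 0 TPM at 8 h and at 0 untreated (adjusted p = 8.83e-05). In these 4 the third treated library was at 0 like the untreated ones. MT1E stood at 247, 99.7 and 0 TPM at 8 h, against 60.1, 22.9 and 73.4 TPM untreated (3.37 ± 0.35, adjusted p = 6.24e-09), and MT1L, an annotated pseudogene of the cluster, at 99.4, 48.4 and 30.5 TPM at 8 h, against 66.0, 28.7 and 0 TPM untreated (3.99 ± 0.80, adjusted p = 0.000112). MT2A stood at 608, 283 and 219 TPM at 8 h, against 395, 645 and 677 TPM untreated, so that the second and the third treated library lay below every untreated one, with a log2 change of 1.23 ± 0.53, adjusted p = 0.0518. The members share long stretches of sequence, so reads may have been split between them. After centring by GC, length and level 7 of the 8 were called higher, and MT2A was not (0.06, adjusted p = 0.957).

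Stress-response lists went both ways, as did all genes, of which 21.6% rose and 32% fell. Without rescaling 6.33% of all genes were higher and 47.5% lower. Of 20 heat shock genes 11 rose and 2 fell with 5 libraries, and without rescaling 3 were higher and 7 lower. With all 6, limma called 0 of them, and 2 were higher at an unadjusted p under 0.05. HSPA8, the constitutive HSP70, stood at 2664, 1164 and 138 TPM at 8 h, against 678, 309.8 and 695 TPM untreated (3.40 ± 0.30, adjusted p = 6.04e-10), and HSPE1, the mitochondrial co-chaperonin, at 416, 306 and 84.9 TPM at 8 h, against 77.4, 54.2 and 114 TPM untreated (3.83 ± 0.45, adjusted p = 4.26e-08). The third treated library was the lowest of the 6 for HSPA8. Of 26 integrated stress response genes 6 rose and 6 fell, and without rescaling 1 was higher and 14 lower. MTHFD2, a mitochondrial folate enzyme, stood at 88.1, 46.5 and 4.35 TPM at 8 h, against 38.5, 13.2 and 43.7 TPM untreated (2.78 ± 0.37, adjusted p = 3.76e-07), and ASNS, asparagine synthetase, at 36.0, 11.4 and 0 TPM at 8 h, against 7.43, 4.12 and 25.9 TPM untreated (2.59 ± 0.46, adjusted p = 2.60e-05). The groups overlapped for both. Of 20 unfolded protein response genes 7 rose and 4 fell, and without rescaling 1 was higher and 7 lower. DNAJB9, a co-chaperone of BiP, stood at 6.34, 3.66 and 7.42 TPM at 8 h, against 2.44, 0 and 0 TPM untreated (3.20 ± 0.57, adjusted p = 2.17e-05), and SYVN1, a ligase of endoplasmic reticulum degradation, at 3.23, 0.38 and 12.2 TPM at 8 h, against 77.6, 51.5 and 42.2 TPM untreated (-3.51 ± 0.45, adjusted p = 1.86e-07). Of 24 NRF2 targets 8 rose and 3 fell, and without rescaling 3 were higher and 8 lower. TXN, thioredoxin, stood at 144, 141 and 24.3 TPM at 8 h, against 55.2, 32.7 and 25.4 TPM untreated (3.60 ± 0.49, adjusted p = 4.75e-07). Of 36 interferon-stimulated genes 11 rose and 7 fell, and without rescaling 2 were higher and 15 lower. IFIT1, a sensor of foreign RNA caps, stood at 233, 71.6 and 16.8 TPM at 8 h, against 70.0, 26.8 and 86.0 TPM untreated (2.87 ± 0.48, adjusted p = 9.91e-06). OAS3, an oligoadenylate synthetase, stood at 13, 3.08 and 0 TPM at 8 h, against 124, 141 and 88.5 TPM untreated (-2.46 ± 0.35, adjusted p = 1.09e-06), but was not called after centring by GC, length and level (adjusted p = 0.152).

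Targets of p53, the factor that DNA damage activates in cells with a working copy, showed no common direction. Of 31 tested, 10 rose and 12 fell with 5 libraries, and 1 was called, lower, with all 6. The median log2 change was -0.06. POLH, a polymerase that copies past platinum lesions, stood at 3.09, 0.7 and 11.3 TPM at 8 h, against 65.2, 35.1 and 99.0 TPM untreated (-3.38 ± 0.30, adjusted p = 4.77e-10), lower in each treated library than in any untreated one. TP53INP1, a pro-apoptotic nuclear protein, stood at 0.32, 0.4 and 14.7 TPM at 8 h, against 22.1, 8.33 and 112 TPM untreated (-3.55 ± 0.58, adjusted p = 6.69e-06), with the third treated library inside the untreated range. RPS27L, a ribosomal protein relative, stood at 48.0, 59.1 and 9.4 TPM at 8 h, against 24.4, 18.8 and 14.8 TPM untreated (3.07 ± 0.59, adjusted p = 7.19e-05), and PMAIP1, the BH3-only protein NOXA, at 36.3, 18.2 and 4.95 TPM at 8 h, against 8.11, 12.5 and 13.1 TPM untreated (2.74 ± 0.46, adjusted p = 1.21e-05). The call of PMAIP1 was lost without rescaling (adjusted p = 0.0620) and after the centring (-0.16, adjusted p = 0.786). Of 16 BCL2 family genes 6 fell and 3 rose, against 32% and 21.6% of all genes. BOK, a BAX-like effector, stood at 15.2, 3.51 and 17.8 TPM at 8 h, against 154, 180.5 and 117 TPM untreated (-2.62 ± 0.47, adjusted p = 2.56e-05), BBC3, the BH3-only protein PUMA, at 0.48, 0.9 and 0 TPM at 8 h, against 8.55, 10.7 and 26.8 TPM untreated (-2.05 ± 0.60, adjusted p = 0.00462), and BID, cleaved by caspase-8, at 61.2, 43.4 and 93.3 TPM at 8 h, against 32.6, 23.2 and 109 TPM untreated (1.86 ± 0.37, adjusted p = 0.000110). BOK and BBC3 were not called after the centring (adjusted p = 0.211 and 0.695).

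DNA repair genes moved in both directions within each pathway, as did all genes tested, of which 21.6% rose and 32% fell with 5 libraries. Of 49 homologous recombination and Fanconi genes 20 rose and 10 fell with 5 libraries, and 2 and 2 were called with all 6. Without rescaling 4 were higher and 20 lower with 5 libraries, against 6.33% and 47.5% of all genes. Beside UBE2T, FANCC, of the Fanconi core complex, stood at 2.15, 1.84 and 43.2 TPM at 8 h, against 205, 150.0 and 399 TPM untreated (-4.93 ± 0.36, adjusted p = 2.11e-11). SLX4, a nuclease scaffold, stood at 0.74, 0.47 and 0 TPM at 8 h, against 20.2, 22.3 and 10.6 TPM untreated (-2.53 ± 0.42, adjusted p = 1.09e-05), but was not called after centring by GC, length and level (-0.18, adjusted p = 0.702). FANCL, the ligase that works with UBE2T, stood at 63.3, 41.5 and 507 TPM at 8 h, against 33.2, 34.2 and 220.3 TPM untreated, and its rise of 1.33 (adjusted p = 0.0362) turned to -0.30 without rescaling (adjusted p = 0.716) and to -1.67 after the centring (adjusted p = 0.0101). Of 31 nucleotide excision and mismatch repair genes 12 rose and 8 fell, and without rescaling 2 were higher and 13 lower. UVSSA, which acts when RNA polymerase II stalls at a lesion, stood at 2.47, 0.49 and 5.91 TPM at 8 h, against 91.0, 114 and 39.8 TPM untreated (-3.98 ± 0.41, adjusted p = 5.51e-09), without overlap. RPA3, the small subunit of the single-strand binding complex RPA, stood at 15.2, 23.9 and 12.2 TPM at 8 h, against 2, 6.17 and 12.9 TPM untreated (3.12 ± 0.65, adjusted p = 0.000181), and GTF2H1, a subunit of TFIIH, at 27.2, 13.2 and 16.9 TPM at 8 h, against 10.2, 10.0 and 11.9 TPM untreated (2.35 ± 0.32, adjusted p = 4.78e-07). Of these 3, UVSSA and GTF2H1 kept their calls after the centring, and GTF2H1 was not called without rescaling (adjusted p = 0.130).

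Among 48 G1/S and replication genes 22 rose and 10 fell, and without rescaling 3 were higher and 23 lower. PCNA, the polymerase clamp, stood at 141, 78.9 and 30.1 TPM at 8 h, against 29.4, 49.2 and 23.8 TPM untreated (3.30 ± 0.39, adjusted p = 4.45e-08), while its antisense neighbour led the third treated library, and without a stated strand setting their reads cannot be told apart. POLE, the leading-strand polymerase, stood at 5.03, 1.27 and 4.53 TPM at 8 h, against 90.3, 89.4 and 48.9 TPM untreated (-3.01 ± 0.29, adjusted p = 2.74e-09), without overlap. Of 43 G2/M and mitosis genes 27 rose and 7 fell, with a median of 1.43, and 9 were higher and 11 lower without rescaling. MKI67, which coats mitotic chromosomes, stood at 4.61, 1.28 and 11.9 TPM at 8 h, against 238, 191 and 163 TPM untreated (-4.45 ± 0.34, adjusted p = 4.29e-11), without overlap. NEK2, a centrosome kinase, stood at 50.7, 34.6 and 8.88 TPM at 8 h, against 3.68, 5.69 and 16.5 TPM untreated (3.97 ± 0.45, adjusted p = 2.62e-08), and CCNA2, cyclin A2, at 56.2, 36.4 and 73.7 TPM at 8 h, against 30.8, 28.96 and 56.9 TPM untreated (1.91 ± 0.27, adjusted p = 1.05e-06). CCNA2 was not called without rescaling (adjusted p = 0.613). Of 51 subunits of RNA polymerase II and Mediator, 25 rose and 16 fell, and without rescaling 10 were higher and 20 lower. POLR2I, the subunit Rpb9, stood at 102.6, 112 and 375 TPM at 8 h, against 58.4, 29.9 and 82 TPM untreated (2.66 ± 0.40, adjusted p = 2.14e-06), and MED31, of the Mediator middle module, at 19.2, 43.8 and 293 TPM at 8 h, against 17.2, 0 and 27.9 TPM untreated (3.45 ± 0.91, adjusted p = 0.00187).

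Of 18 genes of platinum and copper transport, 4 rose and 5 fell with 5 libraries, and SLC47A1, a proton antiporter named after its values were seen, was the 1 gene called with all 6, at 0.37, 0 and 2.84 TPM at 8 h, against 0, 0 and 0 TPM untreated (adjusted p = 0.0478). COX17, a copper chaperone of mitochondria, stood at 98.4, 94.2 and 0 TPM at 8 h, against 28.6, 101.3 and 0 TPM untreated (4.26 ± 0.87, adjusted p = 0.000133). LRRC8A, a subunit of volume-regulated channels through which platinum drugs pass, stood at 3.07, 0.54 and 6.21 TPM at 8 h, against 34.1, 49.1 and 15.7 TPM untreated (-2.52 ± 0.41, adjusted p = 7.21e-06). ABCC1, an efflux pump, stood at 3.85, 2.24 and 6.94 TPM at 8 h, against 58.2, 65.3 and 44.3 TPM untreated (-2.42 ± 0.30, adjusted p = 8.58e-08), and its relative ABCC3 at 3.28, 0.63 and 0 TPM at 8 h, against 31.0, 30.8 and 14.2 TPM untreated (-2.10 ± 0.37, adjusted p = 2.16e-05). The treated values of LRRC8A, ABCC1 and ABCC3 lay under all untreated ones. Of these 4, ABCC1 alone was called in the same direction after centring by GC, length and level (-0.58, adjusted p = 0.0320).

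CPT1A, which the title of the study names and which carries fatty acids into mitochondria, stood at 26.2, 5.72 and 3.56 TPM at 8 h, against 61, 58.8 and 41.7 TPM untreated. All treated libraries were lower, but the log2 change of -0.44 ± 0.37, adjusted p = 0.329 did not pass. It was -2.0 without rescaling (adjusted p = 0.00416) and 1.10 after centring by GC, length and level (adjusted p = 0.0108), so its direction depended on the scale. Of 36 fatty acid oxidation genes 12 rose and 7 fell, and without rescaling 3 were higher and 14 lower. SLC27A2, a fatty acid transporter, was listed at 4.41, 0.97 and 4.25 TPM at 8 h and at 0 untreated (adjusted p = 6.30e-05), and CPT1B, the muscle form, stood at 1.92, 0 and 0 TPM at 8 h, against 17.4, 17.7 and 7.74 TPM untreated (-2.52 ± 0.62, adjusted p = 0.00102). Of 34 genes of fatty acid and cholesterol synthesis 15 rose and 12 fell, and without rescaling 2 were higher and 17 lower. FASN, fatty acid synthase, stood at 14.4, 2.94 and 17.1 TPM at 8 h, against 511, 726 and 236 TPM untreated (-4.35 ± 0.46, adjusted p = 1.08e-08), and SREBF1, which drives lipid synthesis, at 3.82, 1.86 and 3.73 TPM at 8 h, against 64.7, 98.3 and 41.7 TPM untreated (-2.76 ± 0.46, adjusted p = 9.08e-06). Both stood apart between groups. After the centring FASN was still lower (-1.65, adjusted p = 1.01e-05) and SREBF1 was not called (0.30, adjusted p = 0.509). ACAT2, a cytosolic thiolase, stood at 99.5, 119 and 466 TPM at 8 h, against 20.6, 6.35 and 143 TPM untreated (3.58 ± 0.65, adjusted p = 2.99e-05). Of 25 glycolysis genes 8 rose and 6 fell, and without rescaling 2 were higher and 13 lower. PGK1 stood at 342, 202 and 11.7 TPM at 8 h, against 87.1, 59.4 and 80.6 TPM untreated (3.45 ± 0.30, adjusted p = 5.28e-10). Of 20 hypoxia genes 7 rose and 4 fell, and of all genes 21.6% rose and 32% fell. Without rescaling 1 hypoxia gene was higher and 8 were lower, against 6.33% and 47.5% of all genes.

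Of 19 Müllerian and serous ovarian genes, markers of the tumour's tissue of origin, 7 fell and 2 rose (median log2 change -0.51), and the share that fell was near the 32% of all genes. After centring by GC, length and level 5 were lower and 1 higher, with a median of -0.07, against 22.5% and 20.4% of all genes. MUC16, the CA-125 antigen, stood at 1.95, 1.66 and 1.22 TPM at 8 h, against 544, 568 and 269 TPM untreated (-5.96 ± 0.39, adjusted p = 3.06e-12). PAX8, the lineage factor of Müllerian epithelium, stood at 19.7, 7.05 and 54.6 TPM at 8 h, against 341, 402 and 184 TPM untreated (-2.93 ± 0.28, adjusted p = 1.65e-09). Both stood apart between groups and were called lower with all 6 libraries and after the centring. Of 22 epithelial markers 8 fell and 3 rose, against 32% and 21.6% of all genes. With all 6 libraries limma called 0 of them, and 2 were higher and 1 lower at an unadjusted p under 0.05. JUP, plakoglobin, stood at 24.3, 5.74 and 39.2 TPM at 8 h, against 273, 321 and 174 TPM untreated (-2.69 ± 0.36, adjusted p = 3.26e-07), DSP, desmoplakin, at 7.29, 2.28 and 7.43 TPM at 8 h, against 79.7, 46.2 and 83.6 TPM untreated (-2.28 ± 0.31, adjusted p = 4.12e-07), and CLDN7, a tight junction claudin, at 80.4, 51.6 and 54.6 TPM at 8 h, against 40.8, 37.8 and 32.3 TPM untreated (2.42 ± 0.30, adjusted p = 9.23e-08). Of 20 mesenchymal markers 5 fell and 2 rose, with FN1, fibronectin, at 1.3, 0.57 and 1.15 TPM at 8 h, against 15.7, 9 and 46.4 TPM untreated (-2.34 ± 0.41, adjusted p = 1.77e-05). A smaller share of library RNA and a smaller number of cells that hold it cannot be told apart in such bulk samples.

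**Figure D3:**
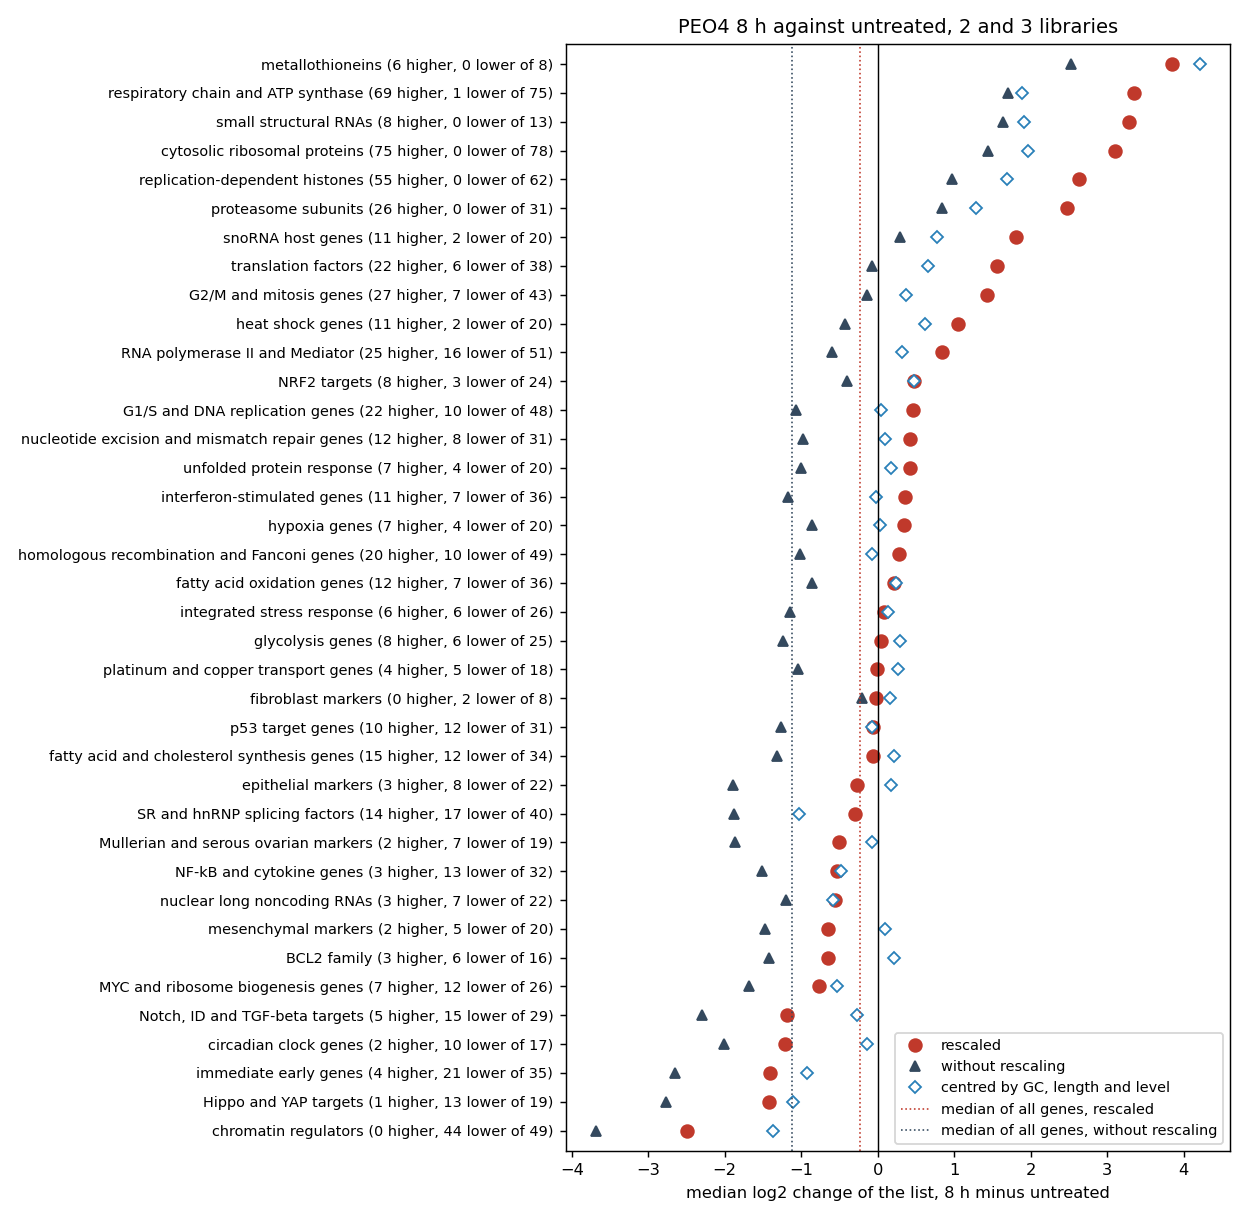
For each gene list with at least 8 members tested, the median log2 change (8 h minus untreated, 5 libraries) is shown with rescaled TPM (red circles), without rescaling (dark triangles) and after centring by GC, length and level (open diamonds), beside the counts called with rescaled TPM. Chromatin regulators lie lowest, at -2.49, and ribosomal proteins (3.11), respiratory chain genes (3.35) and metallothioneins at the top, where several members are listed at 0 untreated. Dotted lines mark the median of all genes, -0.24 rescaled and -1.12 without rescaling.

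The direction of change followed the base composition and the length of the transcript. The 5756 genes that fell had a median GC content of 55.6% and a median transcript length of 3.95 kb. The 3888 that rose had medians of 42.9% and 2.81 kb, and all tested genes 49.0% and 3.30 kb. Among 15429 protein-coding genes the log2 change correlated at -0.50 with GC content and at -0.20 with transcript length (Spearman, a description over genes that share libraries). Of genes under 40% GC, 47.4% rose and 7.87% fell. Of those over 60% GC, 5.37% rose and 60.6% fell. Both properties together sharpened this, since of 1339 genes with at least 55% GC and at least 4 kb 80.1% fell and 0.747% rose, while of 614 genes under 45% GC and under 2 kb 5.21% fell and 54.2% rose. By genomic span the share called lower was 29.5% for genes under 5 kb and 35.1% for those over 200 kb, and the share called higher was 22.5% under 5 kb, 27.9% at 20 to 50 kb and 13.6% over 200 kb. Base composition also differed between libraries of 1 group. Against the mean of the other untreated libraries, untreated replicate 2 had a correlation with GC of 0.35 and replicate 3 of -0.28. Against the untreated mean, the treated libraries had -0.50, -0.44 and -0.08, so the third showed little of it. In the 8 h comparisons of other lines the correlation was -0.43 in PEO1, -0.36 in PEA2 and -0.29 in PEO14. For PEA1 and PEO23 it was not computed. The difference between the changes in PEO4 and PEO1 correlated with GC content at -0.33. The part that base composition or fragment recovery in library preparation has in these changes was not tested. After centring within bins of GC, length and level, 3489 of 17072 genes (20.4%) were higher and 3833 (22.5%) lower with 5 libraries. The balance within several lists moved with it. After the centring G1/S and replication genes had 11 higher and 12 lower, homologous recombination and Fanconi genes 12 and 12, nucleotide excision and mismatch repair genes 6 and 9, and RNA polymerase II and Mediator genes 13 and 12. Unfolded protein response genes then had 2 higher and 6 lower, and epithelial markers 8 higher and 6 lower.

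**Figure D4:**
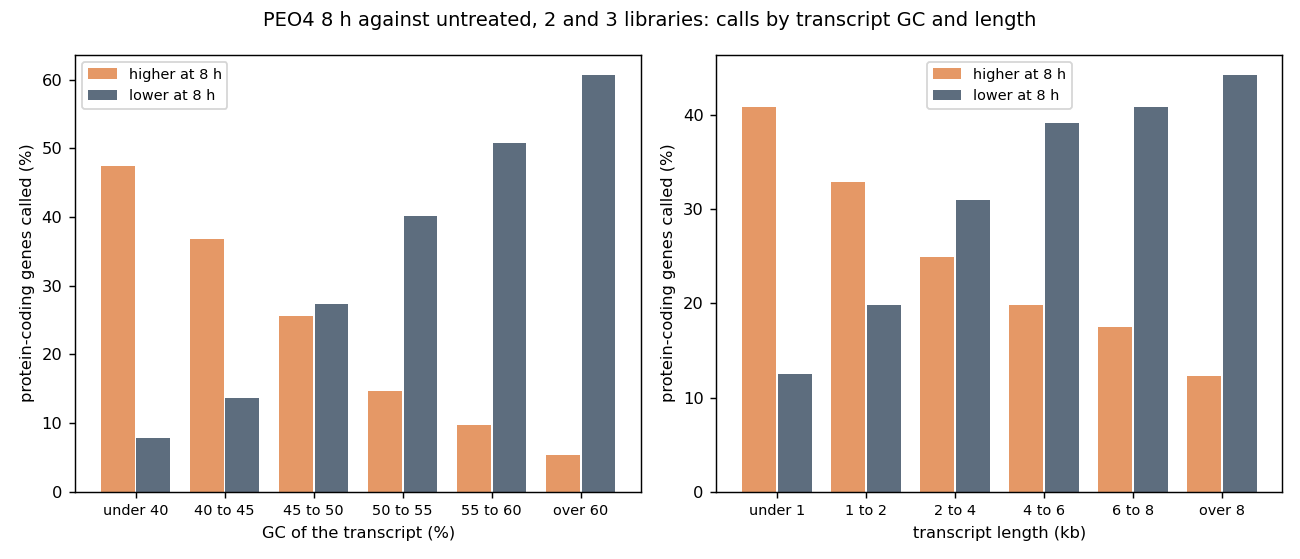
Share of protein-coding genes called higher (orange) and lower (grey) at 8 h with 5 libraries, by GC content of the transcript on the left and by its length on the right. The share called lower climbs to 60.6% over 60% GC and to 44.2% over 8 kb, and the share called higher falls off in the same order.

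The change in PEO4 was then set against that in its sensitive partner PEO1, by a contrast of the changes that shares no library. With all libraries 11 genes (0.0602%) had a more positive change in PEO4 and 41 (0.225%) a more negative one. With the libraries that list at least 12000 genes, 2 treated and 3 untreated in each line, these were 132 (0.733%) and 291 (1.62%), so most genes that changed in PEO4 did not differ from PEO1 by this test. That does not show that they changed alike. Of 49 chromatin regulators and 78 ribosomal protein genes limma called 0, and 1 of each list differed at an unadjusted p under 0.05. Their median log2 changes were -2.49 and 3.11 in PEO4 and -2.11 and 2.57 in PEO1. MAPK15 stood in PEO4 as given above and in PEO1 at 0, 0 and 0 TPM at 8 h, against 5.72, 5.19 and 3.9 TPM untreated, a difference of changes of -5.12 ± 0.65 (adjusted p = 7.84e-06). FAM101A in PEO1 was listed at 0, 0 and 0 TPM at 8 h, against 0, 2.26 and 0 TPM untreated (-5.88 ± 0.60, adjusted p = 2.38e-07). Both genes were thus near 0 in untreated PEO1, as were the genes named next, so the difference of changes rests on the untreated level of PEO4. GAL3ST2, a galactose sulfotransferase, was listed at 0 in all treated PEO4 libraries, against 39.8, 82.0 and 17.9 TPM untreated, and at 0 in all 6 PEO1 libraries. FLG-AS1, an antisense RNA, stood in PEO4 at 0.15, 0 and 8.97 TPM at 8 h, against 17.0, 19.5 and 66.8 TPM untreated, and in PEO1 at 0.74, 0.52 and 0 TPM at 8 h and 0, 1.54 and 1.38 TPM untreated (-4.99 ± 0.54, adjusted p = 4.55e-07).

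On the positive side, TEN1 stood in PEO1 at 30.1, 23.6 and 349 TPM at 8 h, against 55.4, 68.8 and 44.1 TPM untreated (5.66 ± 0.87, adjusted p = 0.000132). TAGLN, an actin-binding protein of smooth muscle, stood in PEO4 at 19.3, 16.9 and 37.6 TPM at 8 h, against 20.5, 9.48 and 16.5 TPM untreated, and in PEO1 at 0, 0.2 and 16.2 TPM at 8 h, against 10.6, 11.7 and 5.76 TPM untreated (4.25 ± 0.57, adjusted p = 2.30e-05). The groups overlapped in PEO4, and its rise there was not called without rescaling (limma, adjusted p = 0.563). An equal shift in both lines cancels in the difference from PEO1. Over 15429 protein-coding genes that difference still correlated with GC content at -0.33 (Spearman). SCGB2A1, a secretoglobin, stood in PEO4 at 20.2, 48.1 and 0 TPM at 8 h, against 14.5, 0 and 0 TPM untreated. It was listed at 0 in all 6 PEO1 libraries, a difference of changes of 5.12 ± 0.91 (limma, adjusted p = 0.00107). MUC16 fell in both lines, with log2 changes of -5.96 in PEO4 and -3.61 ± 0.39 in PEO1 (difference -2.35 ± 0.55, adjusted p = 0.0162). BHLHE41, a repressor of the clock, stood in PEO4 at 3.71, 0 and 9.79 TPM at 8 h, against 37.1, 40.0 and 19.5 TPM untreated, and was listed at 0 in all PEO1 libraries (-3.26 ± 0.66, adjusted p = 0.00393).

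These differences depended on which libraries were fitted. With all libraries FAM101A (0.0107) and LOC102723590 (0.00369), an uncharacterised locus, were still called, while MAPK15 (0.122), GAL3ST2 (0.0616), FLG-AS1 (0.511), TEN1 (0.211), SCGB2A1 (0.747), TAGLN (0.822), MUC16 (1) and BHLHE41 (1) were not (adjusted p in parentheses, limma). Of the 12 largest differences, 10 lost the call with all libraries, in the same direction, and all 12 lost it when the compared groups were fitted alone.

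**Figure D5:**
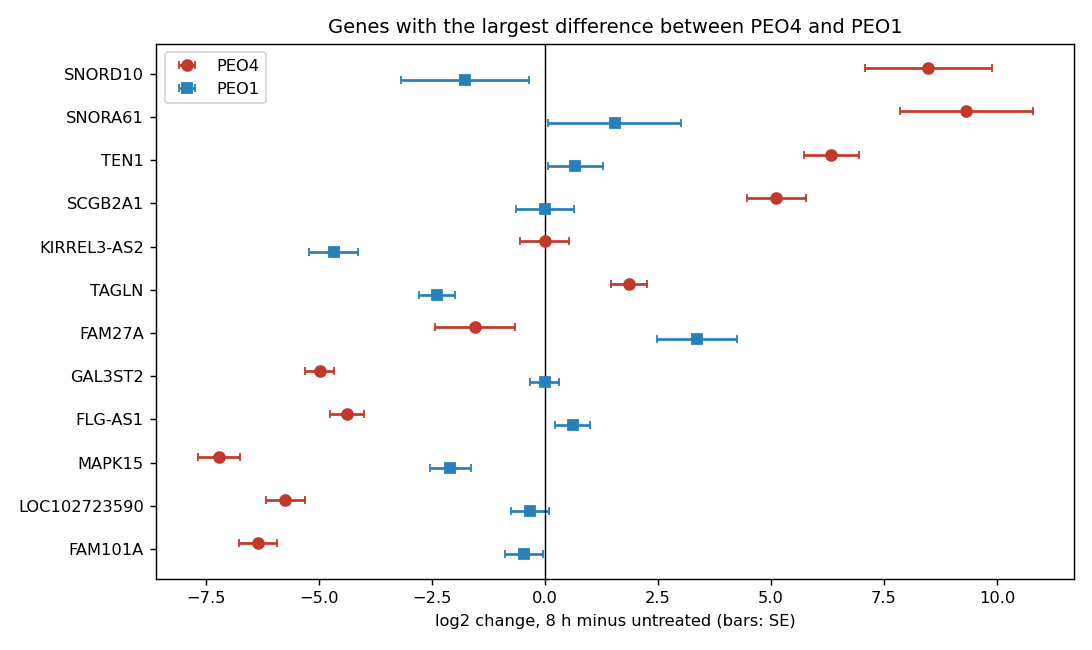
Fitted log2 change (8 h minus untreated, libraries with at least 12000 genes, bars SE) in PEO4 (red circles) and PEO1 (blue squares) for the 12 genes with the largest differences between the lines. FAM101A, LOC102723590, MAPK15, GAL3ST2 and FLG-AS1 fell in PEO4. In untreated PEO1 they stood at no more than 5.72 TPM, so they had little room to fall there. For genes listed at 0 in a group the fitted value depends on the pseudocount.

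At 24 h PEO4 had 1 library above the minimum, the second, and these libraries share the untreated controls, so their values are set beside those at 8 h without a test. MUC16 was at 1.3, 6.27 and 0.16 TPM and NEAT1 at 3.95, 12.6 and 0 TPM at 24 h. Both lay under every untreated library, as at 8 h. EGR1 was at 11.8, 11.2 and 6.82 TPM and MKI67 at 5.68, 14.2 and 1.21 TPM, again under every untreated library. Among genes that rose, UBE2T was at 36.9, 67.0 and 61.8 TPM, RBX1 at 46.2, 62.2 and 35.4 TPM and TEN1 at 416, 134 and 349 TPM at 24 h, above every untreated library in each case. NDUFB2 was at 0, 87.2 and 18.9 TPM, listed at 0 in the first library and above the untreated range in the other two. MT1X was listed at 0, 20.1 and 25.1 TPM, MT1F at 0, 5.96 and 0 TPM and MT1A at 0, 6.89 and 0 TPM at 24 h, so all 3 were above 0 in the second library.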

How the data were processed

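The deposited table holds gene-level TPM for 25435 genes in 54 libraries, and its name points to RSEM. The submitters' processing notes list bcl2fastq 2.18 and hg19. Which aligner, annotation and strand setting were used was not given in the sources used here. Antisense genes and near-identical copies are therefore uncertain. Each column was matched to its sample by the line, time and replicate in its name. Depth is unknown, and a 0 may be a failed estimate. Symbols turned into dates (28) were not named.

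Each library was divided by a median-ratio factor, from the 392 genes listed above 0 everywhere (8287 for the 42 libraries listing at least 12000 genes), and log2 was taken after adding 1. A gene entered the fit if 3 or more libraries had 1 TPM or more, which left 18262 and 18013 in the 2 fits. limma 3.58.1 in R 4.3.3 was fitted with a trend to all 18 groups, so that they share 1 estimate of spread, and p-values were adjusted over all genes tested (Benjamini-Hochberg). The fit was tested on simulated data. GC and length came from GENCODE 29 (GRCh38) by symbol for 94.8% of genes and promoters from RefSeq. The centring used 90 bins, 10 of GC by 3 of length by 3 of level.

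This comparison, its 40 gene lists and its alternative settings were chosen with earlier results of these data known, and the summaries by GC, length, class and overlap were chosen after seeing the values. Named genes are the 12 largest rises and 12 largest falls called with 5 and 6 libraries at a mean rescaled TPM of at least 10, up to 4 members per list, the 6 largest differences from PEO1 in each direction and CPT1A. Some genes that this rule names are not reported here. Other genes named as differing from PEO1 are list members with a called difference. Alternatives tried were scaling, pseudocount, filters, groups in the fit, a replicate block and leaving out libraries.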

Additional observations from a re-analysis of the deposited data

Results flagged for a closer look

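The 8 h change differed between PEO4 and PEO1 for 20 of the genes looked at, by the contrast of the 2 changes in libraries with at least 12000 genes (limma, log2, PEO4 minus PEO1). The change was more positive in PEO4 for SNORD10 (10.25), SNORA61 (7.77), TEN1 (5.66), SCGB2A1 (5.12), KIRREL3-AS2 (4.67), TAGLN (4.25), NDUFB2 (3.75), ALG5 (3.21), RBX1 (3.09) and NUP37 (3.04). It was more negative for FAM101A (-5.88), LOC102723590 (-5.41), MAPK15 (-5.12), FLG-AS1 (-4.99), GAL3ST2 (-4.98), FAM27A (-4.91), BHLHE41 (-3.26), AATK (-2.80), MUC16 (-2.35) and BOP1 (-1.67). These were chosen among many genes, 132 of which were called more positive and 291 more negative. With all libraries FAM101A and LOC102723590 were still called (adjusted p = 0.0107 and 0.00369) and the other 18 were not, with all 20 in the same direction. Of the 12 largest, none was called by limma when the compared groups were fitted alone. Where a gene is listed at 0 in a whole group the fitted difference depends on the pseudocount. KIRREL3-AS2 was listed at 0 in all PEO4 libraries of the comparison, and stood in PEO1 at 0, 0 and 64.7 TPM at 8 h, against 13.3, 27.9 and 128 TPM untreated. FAM27A stood in PEO4 at 0, 0 and 0 TPM at 8 h, against 0, 26.9 and 0 TPM untreated, and was not called there (adjusted p = 0.143). SNORD10 stood in PEO4 at 219, 95.9 and 0 TPM at 8 h and at 0 in all untreated libraries, and SNORA61 at 261, 259 and 0 TPM at 8 h and at 0 untreated. LOC102723590 stood in PEO4 at 0, 0 and 10.2 TPM at 8 h, against 82.2, 25.3 and 144 TPM untreated. In untreated PEO1 FAM101A, LOC102723590, MAPK15, FLG-AS1 and GAL3ST2 were at no more than 5.72 TPM. Their differences thus rest on the untreated level of PEO4.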

How the results depend on the processing

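With all 6 libraries, 1851 genes were called. The count was 4929 without rescaling, 879 with a pseudocount of 0.1, 917 after centring by GC, length and level, and 9644 without libraries under 12000 genes. Fitted to the 6 libraries alone it was 0, with 3166 genes at an unadjusted p under 0.05. It ranged over 836 to 3058 when 1 library was left out: 3058 without the third treated library, 836 without the second, 1202 without the first untreated one and 955 without the second. With 5 libraries the 9644 calls became 4834 when these libraries were fitted alone and 7540 to 9788 with 1 library left out. For the difference from PEO1, 52 genes were called, against 126 without rescaling, 18 with the pseudocount, 83 with no filter, 18 with TPM of at least 5, 0 with only these groups (399 at an unadjusted p under 0.05) and 423 with libraries of at least 12000 genes. It ranged over 41 to 99 with 1 library left out, and was 99 without the third untreated PEO4 library.

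The log2 change turned for FANCL without rescaling (-0.30). After the centring it turned for FANCL (-1.67), CPT1A (1.10), PMAIP1 (-0.16), ABCC3 (0.25), SREBF1 (0.30), SLC16A3 (0.46), LDHA (-0.23), FLNC (0.40), COL1A1 (0.29) and NOTCH3 (0.013). Of 161 named changes 56 were no longer called with all 6 libraries and 20 without rescaling, in the same direction, and of the 159 with known GC 22 after the centring. The cause was not tested.

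Whether replicate numbers pair the libraries could not be settled. Deviations from the group mean correlated at 0.140, -0.047 and 0.132 for same-numbered libraries, and at -0.211 to 0.126 for the other pairs. With 3 libraries in a group the deviations cancel, which ties these correlations to one another. With a replicate block the counts were 1816 with 6 libraries, 9872 with 5, and 44 for the difference from PEO1. TPM carries no depth, so no counting error can be given, and each call with 5 libraries rests on 2 treated libraries.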

Other observations

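Wider lists of other cell types held single genes at a clear level. The 12 leukocyte genes summed to 16.7, 5.87 and 0 TPM at 8 h, against 74.4, 147 and 132 TPM untreated, and most of this was CD68, a lysosomal protein that is not limited to leukocytes, at 15.8, 5.09 and 0 TPM at 8 h, against 64.5, 140.0 and 84.9 TPM untreated (-1.65 ± 0.51, adjusted p = 0.00722). NKG7, of cytotoxic granules, was listed at 0 in all treated libraries, against 8.29, 6.37 and 40.3 TPM untreated. The 10 endothelial genes summed to 2.31, 1.48 and 26.9 TPM at 8 h, against 82.8, 54.1 and 133 TPM untreated, and most of the untreated sums was CLDN5, a claudin of endothelium, at 1.12, 0.7 and 24.6 TPM at 8 h, against 80.3, 51.9 and 102.3 TPM untreated (-4.22 ± 0.58, adjusted p = 5.05e-07). Every treated value lay below every untreated one for CD68, NKG7 and CLDN5. The 12 fibroblast genes summed to 5.32, 1.24 and 20.1 TPM at 8 h, against 37.0, 26.3 and 16.9 TPM untreated, so the third treated library exceeded an untreated one, and most of the sum in that library was ACTA2, smooth muscle actin, at 3.23, 0.67 and 16.5 TPM at 8 h, against 21.6, 13.9 and 11.6 TPM untreated. What share other cells had in these values was not tested.

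Zinc finger genes, a large family of transcription factors, had no common direction. With 5 libraries 21.6% of all genes rose and 32% fell. Of 502 genes whose symbols begin with ZNF, 142 rose and 133 fell with 5 libraries, with a median log2 change of 0.13, while 24 were called higher and 211 lower without rescaling.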
